A study of Arvicanthis niloticus with 59 samples.

Results

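The 82 ribosomal protein genes in the Nile grass rat (Arvicanthis niloticus) tables, of 18970 genes listed, were described across every organ sampled. They were chosen by symbol alone: Rpl, Rps or Rplp followed by a number and at most a short suffix, with the S6 kinases left out. Of these, 42 encode proteins of the large ribosomal subunit, 30 proteins of the small subunit and 3 the stalk of the large subunit. The other 7 carry an l or l1 suffix and are called paralogues here: Rpl3l, Rpl6l, Rpl7l1, Rpl10l, Rpl22l1, Rpl39l and Rps27l. By symbol, 78 of the 82 were also found in the RefSeq gene table of the species (assembly mArvNil1.pat.X).

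The Nile grass rat is a day-active rodent. Polyadenylated RNA was sequenced from 59 biopsies of 48 sites in 22 organs of 4 animals, all healthy and untreated. Testis came from T424, 12 biopsies from T173F, 8 from T426 and 38 from T3F, which gave both the left and the right retina. Neither age nor strain is given for any animal, and 10 sites had libraries of 2 animals.

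A ribosome carries a single copy of most of its proteins, so their genes are expressed together in nearly every cell type, and their mRNAs share a terminal oligopyrimidine tract that ties their translation to growth signals. A few of these proteins have paralogues that replace the usual protein in certain cells. In mouse, Rpl3l takes the place of Rpl3 in heart and skeletal muscle, and Rpl10l and Rpl39l are made in male germ cells, where the X-linked parents Rpl10 and Rpl39 are silenced at meiosis.

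Total expected counts, RSEM's estimates of the reads belonging to each gene, ran from 678819 in testis to 41309569, with medians of 8011760 for T173F, 2512942 for T426 and 18420427 for T3F. Several libraries went against their labels. The library labelled liver T3F had Scgb1a1, an airway secretory gene, as its most abundant gene outside the ribosomal set, and the library labelled lung T3F had Alb, a liver gene. Pancreas T173F had 1392 TPM (RSEM's abundance scaled for length and library) of summed acinar markers, against 328354 TPM in pancreas T3F. In retina, hippocampus, femur and sciatic nerve of T426, 13 listed male germ cell markers summed to 124878, 47247, 22975 and 2097 TPM. They summed to 145943 TPM in testis and to at most 831 TPM in the other 54 libraries. Acinar markers also reached 73354 TPM in sciatic nerve T426. Tests of members that rest on these libraries are given with and without them, except the comparisons of animals.

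The summed level of the 82 genes varied 13.5-fold across libraries. It was highest in uterus at 69334 TPM, followed by thymus at 53177 TPM, the ovary of T173F at 52212 TPM, spleen at 49336 TPM and cornea at 48398 TPM. A total of 12 libraries exceeded 35000 TPM, among them bladder, rectum, colon, cecum, the non-glandular stomach, ovary T3F and sciatic nerve T426. No library of brain, muscle or eye other than cornea was among the 12. The lowest sums were 5127 TPM in pancreas T3F, 7901 TPM in retina T426, 8284 TPM in pancreas T173F and 8753 TPM in testis. Of the 10 brain and spinal cord libraries, 8 were under 15000 TPM, and they ranged from 11104 TPM in cerebellum to 19332 TPM in midbrain with a median of 13132 TPM.

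**Figure D1:**
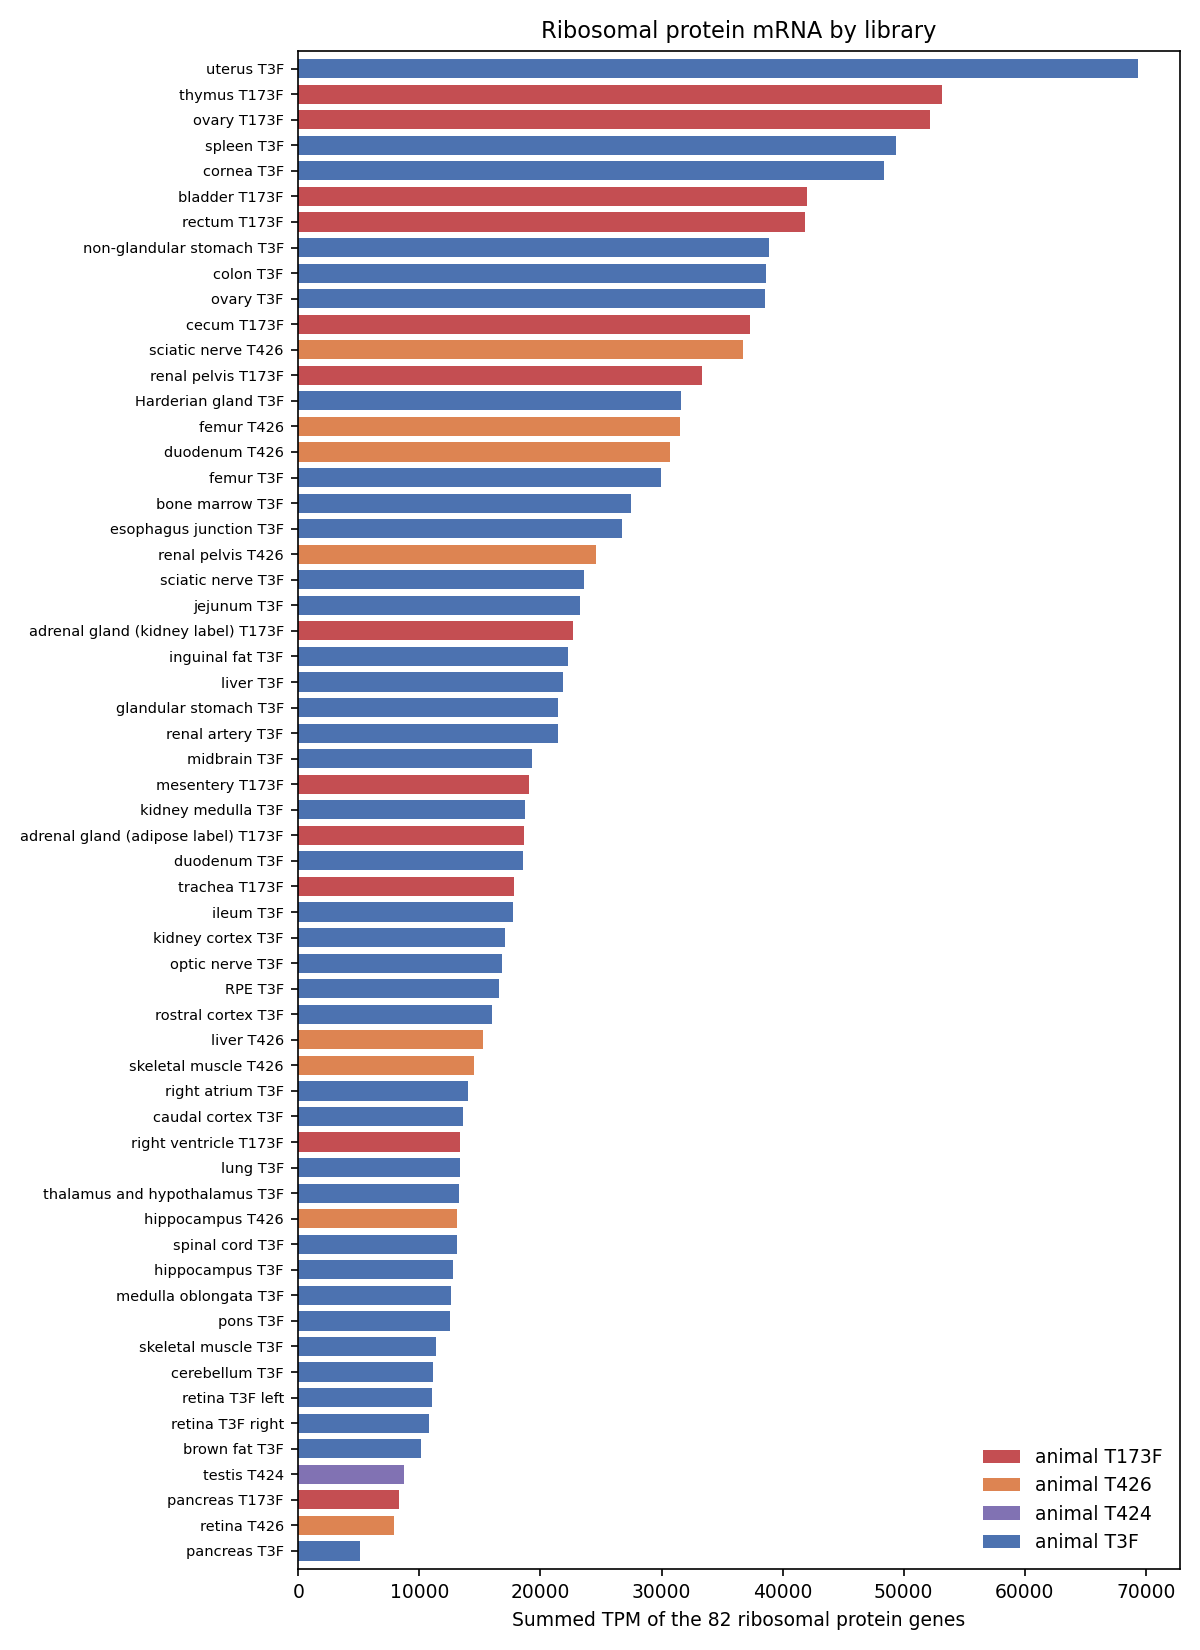
Summed TPM of the 82 ribosomal protein genes in each of the 59 libraries, with bars coloured by animal. Uterus stands highest at 69334 TPM and pancreas T3F lowest at 5127 TPM; T3F libraries span the whole range.

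Animals at the same site differed by 1.03 to 1.65-fold. The mean summed levels were 6706 ± 2232 TPM in pancreas, 9423 ± 2153 in retina, 12946 ± 2171 in skeletal muscle, 12971 ± 236 in hippocampus and 18556 ± 4654 in liver (SD, n = 2 animals each). They were 24645 ± 8562 TPM in duodenum, 28958 ± 6146 in renal pelvis, 30172 ± 9294 in sciatic nerve, 30764 ± 1121 in femur and 45358 ± 9693 in ovary (SD, n = 2 animals each). These means include the doubted libraries. The other library of each such site had 5127 TPM in pancreas T3F, 10945 in retina T3F, 12804 in hippocampus T3F, 15265 in liver T426, 23600 in sciatic nerve T3F and 29971 in femur T3F. Skeletal muscle and hippocampus did not differ beyond their spread, nor did renal pelvis, sciatic nerve and femur. Both ovary libraries exceeded every library of the other 9 sites. Within T3F alone the sum ran from 5127 to 69334 TPM, so the range did not depend on comparing animals.

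The share of RNA taken by a few other genes moved with these levels in some tissues. In pancreas T3F the 10 most abundant other genes, led by the chymotrypsinogen gene Ctrb1, held 72.9% of all TPM, against a median of 20.1% over libraries. Counted outside the 100 most abundant other genes of each library, ribosomal protein genes made up 11.6% of the TPM in pancreas T3F, far above the median of 3.24%. On that scale retina T426 was lowest at 1.28% and femur T426 highest at 13.75%. As a share of counts in place of TPM, the members ran from 0.706% in the right retina of T3F to 7.82% in femur T426. In whole-tissue RNA, fewer cells rich in these mRNAs and less of them per cell cannot be told apart.

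Both subunits held similar shares in most organs. The ratio of summed small to summed large subunit TPM had a median of 0.985 and ran from 0.724 in pancreas T173F to 1.22 in femur T426. Brown fat, at 0.733, and Harderian gland, at 0.753, were next to the low end. The large subunit held a median of 45.3% of the members' TPM, the small subunit 44.3%, the stalk 7.44% and the paralogues 2.76%. The stalk proteins, which recruit the elongation factors, ranged from 4.94% in the adrenal gland biopsy listed under kidney to 10.7% in pancreas T3F.

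Among the 75 core genes, meaning all but the paralogues, the most abundant by median TPM were Rps15 at 842, Rps4x at 836, the stalk gene Rplp1 at 763, Rps27a at 716 and Rps25 at 682. Rps27a encodes ubiquitin fused to the ribosomal protein. The lowest 5 medians were 0.520 TPM for Rpl36a, 1.54 for Rps27, 2.03 for Rps21, 10.6 for Rpl15 and 12.5 for Rpl35. For Rps27 and Rpl36a a close copy was listed at a much higher median level: 291.6 TPM for Rps27rt and 85.6 TPM for Rpl36al. Reads of near-identical copies can be divided between them in RSEM, so the levels of Rps27, Rpl36a and others with listed copies (Rpl7a, Rpl9, Rpl13, Rpl13a, Rpl21, Rpl23a, Rpl36 and Rps2) are uncertain. A total of 68 core genes were above 0 in every library. Of the 75, 48 peaked in uterus and 9 in thymus, and 25 were lowest in testis, 22 in pancreas T3F and 17 in pancreas T173F.

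Core genes moved together across libraries. The median of their pairwise Pearson correlations of log2(TPM + 1) over 59 libraries was 0.83, and 0.87 among the 65 with at least 10 counts in every library; the libraries share animals and depth, so these values only describe them. The median SD of a core gene was 0.91 on that log2 scale, against 1.20 for the 5298 genes of any kind with a median of at least 20 TPM. Taken as a share of the members' summed TPM, the steadiest core genes included Rps7, Rpl8, Rps27a and Rpl27, with an SD of the log2 share of 0.20 to 0.22. The least steady of those above 0 everywhere were Rpl28, Rpl23, Rpl15, Rpl10 and Rpl18, with an SD of 0.57 to 0.64. Rpl10 joins the large subunit in a late step of its maturation.

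Departures from a common profile were concentrated in a few libraries. Rpl18 reached 2130 TPM in Harderian gland, 6.73% of the members' TPM against a median share of 1.51%, and 637 TPM in brown fat, 6.29%. Harderian gland, a lipid-secreting gland behind the eye of rodents, also had raised shares of Rpl17, at 2.15% against a median of 0.539%, and Rpl7, at 5.78% against 2.28%. The stalk gene Rplp2 held 3.51% of the members' TPM in brown fat and 2.88% in femur T426, against a median of 0.962%. In pancreas T173F, Rpl11 at 12.3% and Rpl23 at 7.62% stood apart from medians of 1.12% and 1.15%; both proteins can bind the p53 regulator Mdm2. The next highest shares of Rpl23, 3.19% in mesentery and 2.88% in trachea, were also in T173F libraries. In testis, 7 of the 68 core genes above 0 everywhere were at 2 or more times their median share, among them Rps15 at 10.3% and Rpl36 at 7.99%, and 22 were at 0.5 times or less. Testis was 1 library, the shallowest of the series, as were Harderian gland and brown fat 1 library each, so these departures have no replicate.

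Differences among the 10 replicated sites were tested with edgeR's quasi-likelihood test on rounded expected counts, over all genes that passed the filter on low counts. Rps27l and Rpl36a did not pass it, which left 80 members. In the joint test among sites, 39 of the 80 (48.8%) differed at an adjusted p under 0.05, against 41.4% of all 17564 genes tested, a share near the background. The smallest adjusted p was that of Rpl3l (0.00047), followed by Rpl18 (adjusted p = 0.00249) and Rpl11 (adjusted p = 0.00373) in the edgeR fit. The count moved by over 1.5 times when any of 16 libraries was left out. It was 71 without pancreas T173F and 72 without pancreas T3F. It was 8 without femur T426 or hippocampus T426, 10 without hippocampus T3F, 11 without retina T426 and 12 without retina T3F. Without either library of renal pelvis or of skeletal muscle, either of sciatic nerve, either of duodenum, or ovary T3F, it was 13 to 21.

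Ribosomal protein genes were low in retina. In retina 16 of 80 members lay below the mean over the 9 other sites by at least 1 on the log2 scale at an adjusted p under 0.05, against 4.12% of all genes. The median log2 fold change of the members was -1.73, against 0.14 for all genes tested. Of the 16, 8 encode large subunit proteins (among them Rpl7, Rpl10, Rpl12, Rpl18 and Rpl31) and 6 small subunit proteins (among them Rps4x, Rps16, Rps19 and Rps26), beside the stalk gene Rplp2 and the paralogue Rpl7l1. Those of Rpl10, Rps16, Rpl18 and Rplp2 were among the larger falls.

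Rpl10 had 11.3 TPM in retina T426, 50.7 in the left and 49.4 in the right retina of T3F, against 28.8 to 246 TPM with a median of 133 in the 18 libraries of the other 9 sites. Its log2 fold change was -2.78 ± 0.73 (SE; edgeR adjusted p = 0.0142). No library of another site was below retina T426, and 16 of the 18 were above all 3 retina libraries.

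Rps16 had 101, 195 and 189 TPM in retina, against 122 to 1441 TPM with a median of 529.5 elsewhere (log2 fold change -2.39 ± 0.76 SE, edgeR adjusted p = 0.0364). Rpl18 had 59.0, 145 and 133 TPM, against 88.6 to 724 TPM with a median of 329 (log2 fold change -2.39 ± 0.62 SE, edgeR adjusted p = 0.0134). Rplp2 had 41.4, 100.4 and 106 TPM, against 46.0 to 910.0 TPM with a median of 229.8 (log2 fold change -2.37 ± 0.78 SE, edgeR adjusted p = 0.0441). The call of Rps16 was lost with the animal as a block (edgeR adjusted p = 0.0527). Leaving out 1 of the 20 libraries ended the call of Rps16 in 13 cases and that of Rplp2 in 14; without filtering low counts Rplp2 was at an adjusted p of 0.0505 by edgeR. In each of these genes the libraries of other sites that came down to retina's level included pancreas.

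The number of falls in retina moved with the libraries used. It was 0 without retina T426 and 1 without retina T3F, 63 without pancreas T173F, 55 without pancreas T3F, 29 without liver T3F and 27 without femur T3F. It was 5 to 9 when any library of hippocampus, duodenum, renal pelvis, skeletal muscle, sciatic nerve or ovary was left out. Without liver T3F and pancreas T173F together it was 66. Without these and 5 T426 libraries (renal pelvis, sciatic nerve, femur, hippocampus and retina) it was 23. That last fit kept the retina of T3F alone. It also left out renal pelvis T426, although the 13 germ cell markers summed to only 113 TPM there, near the median of 115 TPM in the 54 libraries. Summed rod photoreceptor markers were 10381 TPM in retina T426, 27617 TPM in the left and 28243 TPM in the right retina of T3F. Retina T426 held the lower level of both rod and ribosomal protein transcripts, and the part of its germ cell transcripts in these falls was not tested.

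Hippocampus had a median log2 fold change of -1.36 for the members, against -0.01 for all genes, and 0 of 80 members passed as lower in the edgeR test, against 2.06% of all genes. At an unadjusted p under 0.05, 34 of the 80 members differed there by edgeR, against 4926 of 17564 genes tested. Limma on log2(TPM + 1) also gave 0, and DESeq2 gave 33. The count was 27 without pancreas T173F, 14 without pancreas T3F and 1 to 3 without either femur library or liver T3F. Rpl12 had 65.8 TPM in hippocampus T426 and 79.3 in T3F, against 26.1 to 409 TPM with a median of 136 in the other 19 libraries, which overlapped it (log2 fold change -1.46 ± 0.48 SE, edgeR adjusted p = 0.0554).

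Femur, a site added after its count was seen, gave the opposite picture: 54 of 80 members (67.5%) lay above the mean over the 9 other sites, against 9.72% of all genes, and 0 were lower, against 0.518%. The median log2 fold change was 1.87, against 0.03 for all genes. Rplp2 had 910.0 TPM in femur T426 and 432 in T3F, above all 19 other libraries, which reached 407 TPM (log2 fold change 3.43 ± 0.48 SE, edgeR adjusted p = 0.000247). Rps12 had 454 and 311 TPM, with 16 of 19 other libraries below both and 1 above both (log2 fold change 2.81 ± 0.53 SE, edgeR adjusted p = 0.00275). Rpl36 had 1506 and 737 TPM, with 13 of 19 other libraries below both (log2 fold change 2.66 ± 0.54 SE, edgeR adjusted p = 0.00452).

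These rises depended on femur T426 and on the scale. Without femur T426 only Rpl3l passed, and with the animal as a block 27 did. On log2(TPM + 1), where limma was used, 2 passed, Rplp2 and Rpl3l, and the members' median was 0.79, against -0.77 for all genes. Without liver T3F, pancreas T173F and 5 T426 libraries (renal pelvis, sciatic nerve, femur, hippocampus and retina), 2 passed, Rpl3l and Rpl39l, with a median of 0.76, against -0.01 for all genes. The globin gene Hbb-bs alone held 335885 TPM in femur T426 and 160751 TPM in femur T3F, and listed red cell and neutrophil markers summed to 8464 and 10520 TPM there. The part of this composition in the result was not tested.

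**Figure D2:**
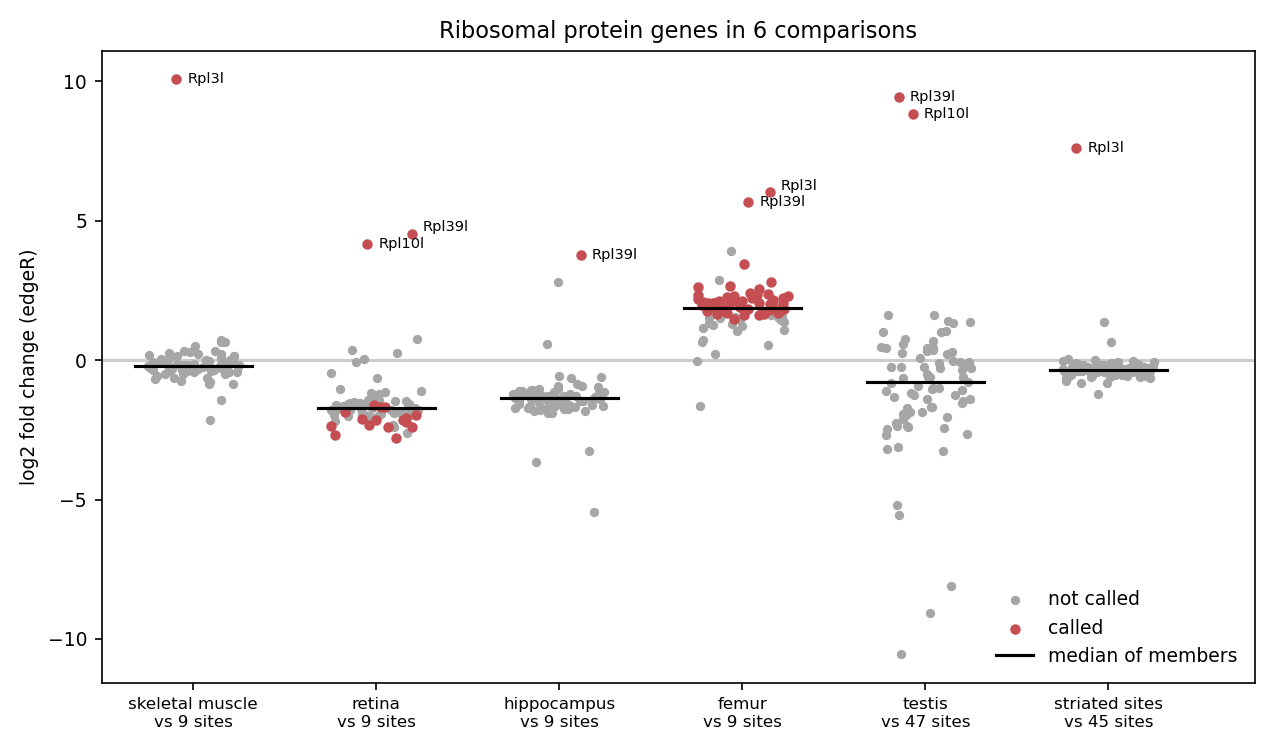
Log2 fold change of each tested ribosomal protein gene (points, edgeR) in 6 comparisons, with called genes in red and a black line at the median of the members. Core genes lie as a band, low in retina (median -1.73) and hippocampus (-1.36) and high in femur (1.87), while Rpl3l lies far above the band in skeletal muscle, femur and the striated sites, and Rpl10l and Rpl39l do so in testis and retina; the testis points far below the band include genes with 0 counts in that library.

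Rpl3l had the smallest adjusted p of the members in the joint test among the 10 replicated sites, and was highest in skeletal muscle. It had 428 TPM in skeletal muscle T426 and 318 TPM in skeletal muscle T3F, against 0 to 54.7 TPM with a median of 0.446 in the 19 other libraries of replicated sites. The groups did not overlap. Its log2 fold change was 10.06 ± 0.92 (SE; edgeR adjusted p = 5.05e-06), and it was the single member higher in muscle (1 of 80, 1.25%), against 6.19% of all genes. It kept this call without any one of the 20 libraries and under the 7 other settings.

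Rpl3, the parent, which lines the peptidyl transferase centre, had its lowest levels among these libraries in muscle. It had 28.7 TPM in skeletal muscle T426 and 30.2 TPM in T3F, below all 19 other libraries, which ran from 39.2 to 528 TPM with a median of 186. Its log2 fold change was -2.13 ± 0.66, which did not pass (SE; edgeR adjusted p = 0.0679). By edgeR 0 of 80 members were lower in muscle, against 0.985% of all genes. At an unadjusted p under 0.05, 2 of the 80, Rpl3l and Rpl3, differed, against 3428 of 17564 genes tested. Rpl3 passed as lower under DESeq2, limma and RLE scaling, and without liver T3F, pancreas T173F or pancreas T3F. Rpl3l made up 93.7% of the pair's TPM in T426 muscle and 91.3% in T3F muscle. The median log2 fold change of the 80 members in muscle was -0.22, against -0.46 for all genes.

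The heart libraries differed in the paralogue. Right ventricle T173F had 138 TPM of Rpl3l and 70.0 TPM of Rpl3, so Rpl3l was 66.3% of the pair. Right atrium T3F had 3.05 TPM of Rpl3l and 139 TPM of Rpl3, a share of 2.14%, although 18 of 18 listed striated muscle markers were present there and summed to 34805 TPM. They summed to 82447 TPM in right ventricle. Chamber and animal differ together here, with 1 library each, and cannot be told apart. Over the 3 striated muscle sites the log2 fold change of Rpl3l against the mean of the other 45 sites was 7.59 ± 0.55 (SE; edgeR adjusted p = 3.2e-07). It was the single member higher (1 of 81, 1.23%), against 6.60% of all genes, and it stayed the single one without any one of the 4 striated libraries. By edgeR 0 members were lower, against 0.797% of all genes. At an unadjusted p under 0.05, 2 of 81 members differed, against 2986 of 18323 genes tested. Limma gave 3 lower members, Rpl3, Rps23 and Rpl18.

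Rpl3l also appeared where biopsies of other organs held muscle. The esophagus junction had 175 TPM, trachea 91.6, femur T3F 54.7, sciatic nerve T3F 19.95, sciatic nerve T426 9.18 and femur T426 7.95 TPM. Striated muscle markers summed to 58662, 28005, 21346, 10969, 2325 and 4124 TPM in those libraries, in the same order. Among these libraries only the last pair departed from a common order of both quantities, and right atrium had less Rpl3l than each of them. The order did not extend to bladder. Its Des (10331 TPM) and Actc1 (6209 TPM), both on the marker list, were the highest of all libraries, but its Rpl3l was 0.33 TPM. The doubted pancreas T173F had 5.19 TPM of Rpl3l with a marker sum of 109.7 TPM. The median over the 55 libraries outside the striated sites was 0.292 TPM. Over the means of 48 sites, the genes whose log2(TPM + 1) was most like that of Rpl3l were Myot (Pearson r = 0.977), Xirp2 (0.952) and Smco1 (0.948). Myot and Xirp2 encode proteins of the muscle sarcomere and its attachments.

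**Figure D3:**
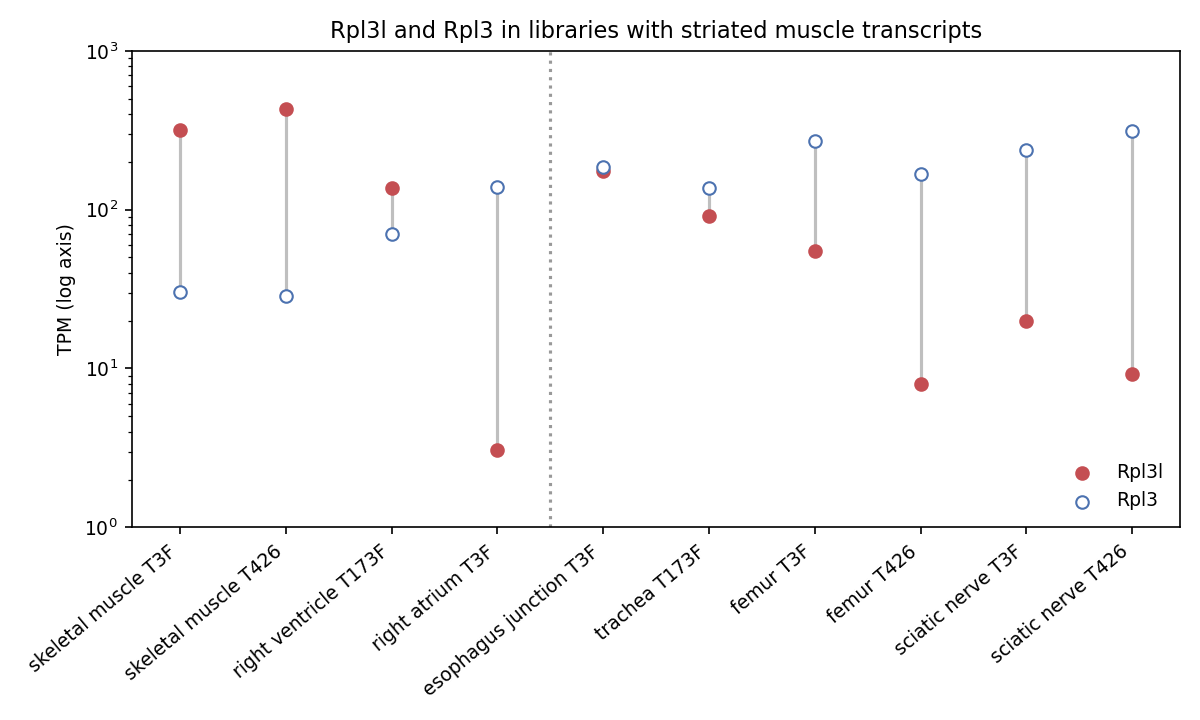
TPM of Rpl3l (filled) and its parent Rpl3 (open) on a log axis in the 4 libraries of striated muscle sites, left of the dotted line, and in 6 libraries of other sites that held striated muscle transcripts. Rpl3l exceeds Rpl3 in both skeletal muscle libraries and in right ventricle, and lies far below it in right atrium (3.05 against 139 TPM).

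Rpl10l and Rpl39l were highest in testis. Rpl10l had 185 TPM there, against 0 to 85.6 TPM with a median of 1.41 in the 58 other libraries. Its parent Rpl10 had 5.93 TPM in testis, below every other library (11.3 to 414.5 TPM, median 114). Rpl39l had 104 TPM in testis, against 0 to 44.0 TPM with a median of 0.521 elsewhere. Its parent Rpl39, a small protein of the exit tunnel, had 10.3 TPM in testis, again below every other library (42.4 to 695 TPM, median 173.2). In testis the paralogues thus held 96.9% of the Rpl10 pair and 91.0% of the Rpl39 pair by TPM, on 39 counts of Rpl10l and 100 of Rpl39l. The parents had 22 counts (Rpl10) and 11 (Rpl39). By counts the paralogues held 63.9% of the Rpl10 pair and 90.1% of the Rpl39 pair, so the Rpl10l share depended on the scale.

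Against the mean of the other 47 sites, Rpl39l was higher in testis by 9.43 ± 0.78 and Rpl10l by 8.83 ± 0.97 on the log2 scale (SE; edgeR adjusted p = 2.74e-06 and 2.16e-05). Testis has 1 library, so this fit assumes that it varies like the replicated sites. These were the 2 members higher of 81 tested (2.47%), against 12.9% of all genes. Rpl10 at -3.11 ± 1.03 (edgeR adjusted p = 0.0515) and Rpl39 at -3.18 ± 1.10 (edgeR adjusted p = 0.0614) did not pass. By edgeR 0 members were lower, against 3.94% of all genes. Limma on log2(TPM + 1) called 43 lower, and the fit without liver T3F, lung T3F and pancreas T173F called 19.

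The median log2 fold change of the 81 members in testis was -0.78 with TMM scaling, against -1.17 for all genes. On log2(TPM + 1), where limma was used, the order was reversed, with -1.637 for the members and -1.255 for all genes. With RLE scaling these were -0.06 and -0.58, a shift of all genes, and 8 members passed as higher, Rpl10l and Rpl39l among them. A total of 6 tested core genes (Rps18, Rps21, Rps27, Rps28, Rps29 and Rpl36a) had 0 counts in the testis library. With these at a floor of 3 counts the members' median was -0.50.

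After testis, Rpl10l was highest in the 4 libraries of T426 that held male germ cell transcripts, and Rpl39l in 3 of them (retina, hippocampus and femur). Rpl10l had 85.6 TPM in retina T426, 53.4 in hippocampus T426, 18.6 in femur T426 and 18.4 in sciatic nerve T426. Rpl39l had 44.0, 39.2, 19.8 and 4.56 TPM in these. The transition protein gene Tnp2, which packs sperm DNA, had 104646 TPM in testis, 85959 in retina T426, 27939 in hippocampus T426, 15829 in femur T426 and 1238 in sciatic nerve T426, and was listed at 0 in the other 54 libraries. In those 54 Rpl10l stayed at or under 7.46 TPM.

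The T3F libraries of the same sites did not share these levels. Rpl10l had 7.29 and 6.62 TPM and Rpl39l 1.47 and 0.776 TPM in the left and right retina of T3F. In hippocampus T3F they had 1.998 and 0.871 TPM. The called rises of Rpl39l (log2 fold change 4.53 ± 1.06 SE, edgeR adjusted p = 0.00869) and Rpl10l (4.17 ± 1.21 SE, edgeR adjusted p = 0.026) in retina, 2 of 80 members (2.50%) against 17.0% of all genes, therefore rest on retina T426. Without that library Rpl39l was at -0.26 and neither passed. In hippocampus Rpl39l was the single member higher (3.79 ± 1.11 SE, edgeR adjusted p = 0.0342; 1.25% against 12.9% of all genes), and without hippocampus T426 it was at -0.47. It also lost its call with the animal as a block and without any of 7 further libraries: both of duodenum, both of renal pelvis, skeletal muscle T3F, sciatic nerve T3F and ovary T3F.

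Rpl39l had a second, lower site in blood-forming tissue. It had 12.4 TPM in bone marrow, 8.69 TPM in femur T3F and 5.57 TPM in spleen, all of T3F, where Tnp2 was listed at 0 and the germ cell markers summed to 104, 78.0 and 86.3 TPM, near the median of 115 TPM in the 54 libraries. Rpl10l had 1.42, 2.37 and 2.67 TPM in the same 3 libraries. In femur Rpl39l passed as higher (19.8 TPM in T426 and 8.69 TPM in T3F; log2 fold change 5.66 ± 1.01 SE, edgeR adjusted p = 0.00217) and passed in the fit without the 5 T426 libraries named above, but not without femur T426 alone (edgeR adjusted p = 0.229). Femur was T3F alone in both of those smaller fits. The parent Rpl39 had 254, 277 and 537 TPM in bone marrow, femur T3F and spleen, so Rpl39l was 4.66%, 3.04% and 1.03% of the pair. Over 48 site means the genes most like Rpl39l were 1700019N19Rik (Pearson r = 0.928), Hist1h2bp (0.916) and 1700019O17Rik (0.913). Those most like Rpl10l were BC100451 (0.870), Slc36a3 (0.868) and Stag3 (0.857), a meiotic cohesin subunit. The means of retina, hippocampus, femur and sciatic nerve included the T426 libraries with germ cell transcripts. Both rankings were made only with these libraries included, so they do not describe likeness with these libraries left out.

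**Figure D4:**
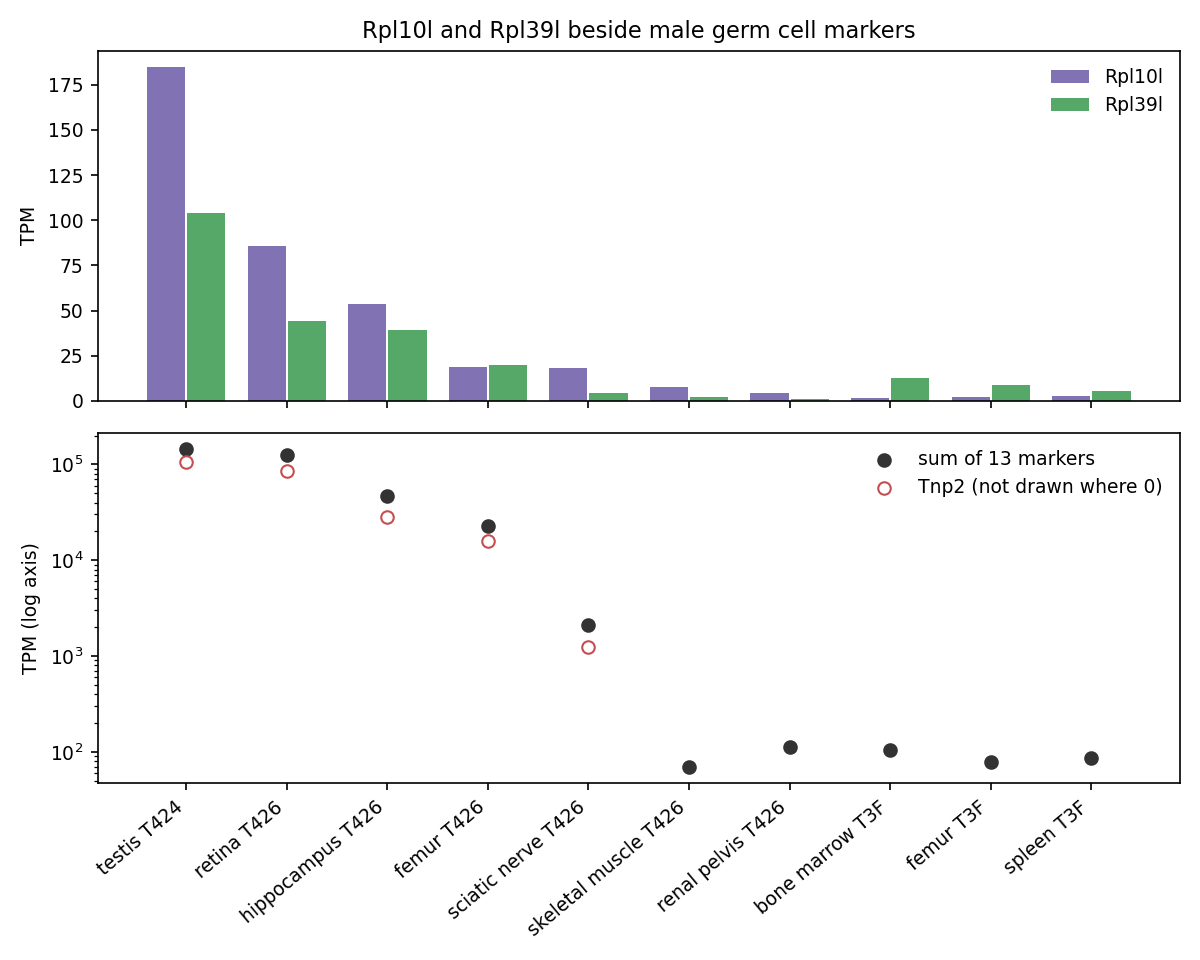
Upper panel: TPM of Rpl10l and Rpl39l in testis, in 4 T426 libraries with germ cell transcripts and in 5 libraries without Tnp2. Lower panel: the sum of 13 male germ cell markers and Tnp2 alone, on a log axis, in the same libraries; Rpl39l is above Rpl10l in bone marrow, femur T3F and spleen, where Tnp2 was listed at 0.

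Rpl22l1 was the member whose share varied most among those present in every library, with an SD of 1.04 for the log2 share. Rpl22, its parent, is dispensable in mice apart from lymphocyte development, and in mouse cells it represses Rpl22l1. The ratio of Rpl22l1 to Rpl22 TPM was low in most T173F libraries, a pattern noticed after its values were seen. In T173F it was 0.245 to 0.694, with a median of 0.363, in the 11 libraries other than pancreas, and 3.89 in the doubted pancreas library. In T426 it ran from 0.489 to 2.21, with a median of 1.63 over 8 libraries. In T3F it ran from 0.759 to 3.65 with a median of 1.37 over 38 libraries. The T173F libraries other than pancreas did not overlap those of T3F.

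**Figure D5:**
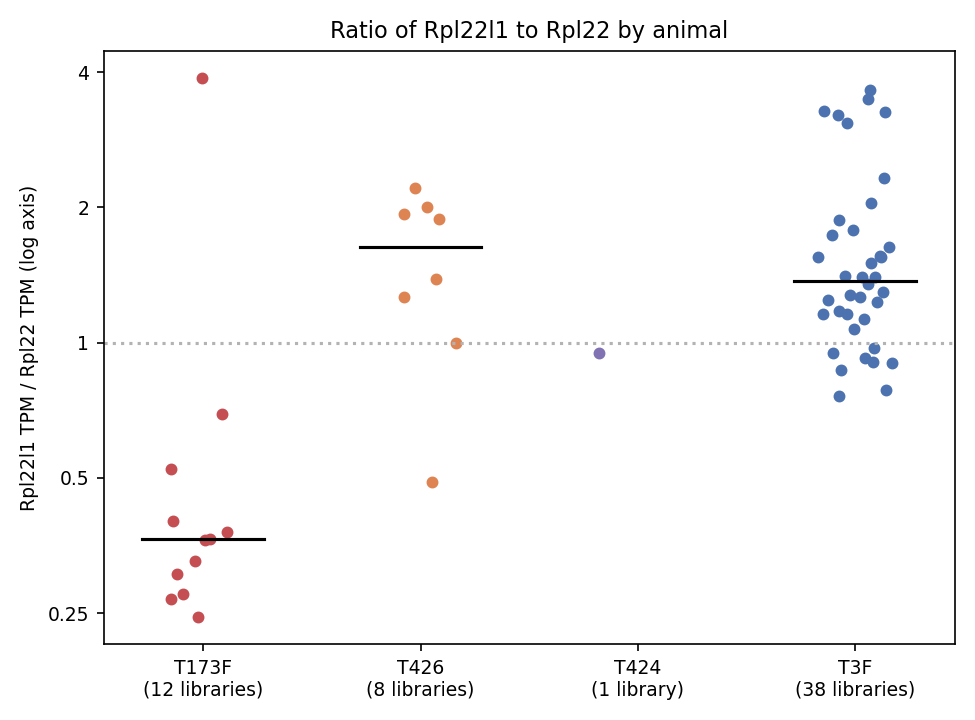
Ratio of Rpl22l1 to Rpl22 TPM in each library by animal, on a log axis, with a line at the median of animals with more than 1 library. The T173F libraries lie at 0.245 to 0.694 except pancreas at 3.89, and those of T3F lie between 0.759 and 3.65.

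Most sites of T173F were not sampled from T3F, so animal and site are largely confounded. The ovary is the site where both gave a clean library: Rpl22l1 had 59.3 TPM in T173F and 265 TPM in T3F, while Rpl22 had 242 TPM in T173F and 190.0 TPM in T3F. In renal pelvis the ratio was 0.694 in T173F and 1.26 in T426. As a share of the members' TPM, Rpl22l1 had a median of 0.155% in T173F libraries and 0.672% in T3F libraries, the lowest ratio of these medians among 71 members above 0 in every library. Rps13, at 0.223% in T173F and 0.478% in T3F, came next. In the ovary, too, Rpl22l1 and then Rps13 had the lowest ratio of T173F to T3F share.

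With site as a block, Rpl22l1 was lower in T173F than in T3F by -1.67 ± 0.71 on the log2 scale, which did not pass (SE; edgeR unadjusted p = 0.0349, adjusted p = 0.666). No gene passed in that comparison of 17564 genes (0.0% in either direction), and Rpl22l1 was the single member with an unadjusted p under 0.05. Among the sites of that fit, only ovary and pancreas had libraries of both T173F and T3F. The pancreas library of T173F is the doubted one, with a ratio of Rpl22l1 to Rpl22 of 3.89. The comparison was not run without it. In T426 against T3F, 112 genes were higher (0.638%) and 6 lower (0.0342%), none of them a member.

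Within T3F the ratio differed by region of the nervous system. It was 3.65 in midbrain, 3.49 in medulla oblongata, 3.27 in pons, 3.20 in spinal cord and 3.08 in thalamus and hypothalamus, but 1.78 in cerebellum, 1.63 in hippocampus, 1.503 in rostral cortex and 1.40 in caudal cortex. Pancreas T3F, at 3.27, was the other T3F library above 3. The lowest T3F ratios were 0.759 in retinal pigment epithelium (RPE), 0.785 in brown fat and 0.870 in bone marrow. Of these sites, hippocampus and pancreas have a second library: hippocampus T426 gave 1.88 and the doubted pancreas T173F 3.89. The others have 1 library each.

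The other paralogues were measured against their parents in the same way. Rpl6l had a median of 353 TPM, with a ratio to Rpl6 of 1.54 to 2.12 and a median of 1.95 over T3F libraries. In T173F it was 2.16 to 3.81 in 10 of the 11 libraries other than pancreas, above the T3F range, and 2.07 in trachea; in the doubted pancreas it was 0.376. In T426 it ran from 1.56 to 3.25, highest in liver. By counts Rpl6l was below Rpl6 in T3F libraries, from 28.9% of the pair in spinal cord to 35.9% in skeletal muscle. Rpl6l was not found by symbol in the RefSeq gene table. Rpl7l1, whose yeast relative acts in assembly of the large subunit, had a median of 55.8 TPM and was 0.0481 to 0.193 times Rpl7 in every library. It was among the 16 members lower in retina, at -1.69 ± 0.48 (SE; edgeR adjusted p = 0.0222). Rps27l, which p53 induces in human cells, was listed at 0 in 48 of 59 libraries and reached 8.88 TPM in cerebellum; with its parent listed at a median of 1.54 TPM, no share of this pair was drawn.

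Other genes of translation were counted in the same tests. The list of 15 translation factors and related genes included Tpt1, Npm1, Naca and Btf3. Its summed TPM followed the members (Pearson r = 0.87 of log2 sums over 59 libraries), from 789 TPM in pancreas T173F to 14609 TPM in uterus. Of the 15, 0 passed the joint test, which 41.4% of all genes passed. Of 19 listed ribosome biogenesis genes, 4 passed it: Polr1a, Dkc1, Fbl and Nhp2. The 78 listed mitochondrial ribosomal proteins did not follow the members (r = 0.23, Spearman 0.05), and 14 of the 75 tested passed the joint test. In skeletal muscle 7 of these 75 were higher (against 6.19% of all genes), and 0 were lower; the smallest adjusted p was that of Mrps18a at 1.91 ± 0.40 (SE; edgeR adjusted p = 0.00729) and the largest fold change that of Mrpl42 at 2.29 ± 0.62 (SE; edgeR adjusted p = 0.0352). The elongation factor Eef1a2, the form known from muscle and neurons, was also higher in the striated sites, at 6.51 ± 0.43 (SE; edgeR adjusted p = 4.43e-08). It also passed as higher in hippocampus, at 4.24 ± 0.70 (SE; edgeR adjusted p = 0.000544), and in retina, at 2.87 ± 0.75 (SE; edgeR adjusted p = 0.0141). Femur, too, had Eef1a2 higher, at 2.58 ± 0.76 SE (edgeR adjusted p = 0.045).

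In retina 1 of the 15 translation factors and related genes, Tpt1 (edgeR adjusted p = 0.0499), was lower, against 4.12% of all genes. So were 1 of 19 biogenesis genes, Nhp2, and Rpl36al at -2.06 ± 0.61 (SE; edgeR adjusted p = 0.0274). In femur 0 of those 15 genes and 3 of 19 biogenesis genes (Fbl, Nhp2 and Nop56) were higher, against 9.72% of all genes. So were 2 of the 3 tested ribosomal components whose symbols lie outside the pattern, Rpsa and Rpl36al. In testis Eef1g and Pabpc1 were higher, at 2.02 ± 0.58 (SE; edgeR adjusted p = 0.0258) and 2.09 ± 0.61 (SE; edgeR adjusted p = 0.0286), against 12.9% of all genes, and Rpl36al and Nop56 were lower, against 3.94%. Pabpc1 binds the poly(A) tail of mRNAs.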

How the data were processed

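Polyadenylated RNA of 59 biopsies was sequenced on Illumina instruments. The authors deposited expected counts and TPM per gene, made with RSEM and Bowtie 0.12.8, per the submitters' processing notes; the sources used here name neither RSEM's version nor a genome build. Of the deposited expected counts, 54.76% were whole (tolerance 1e-9), and they were rounded. TPM were used as deposited for levels. For tests, the counts of T3F's left and right retina were added.

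Tests used edgeR 4.0.16 in R 4.3.3 (quasi-likelihood, TMM scaling, its filter on low counts, Benjamini-Hochberg adjustment over all genes). A call needed an adjusted p under 0.05 and, except in the joint test, a log2 fold change of 1 or more in size. Site contrasts used 20 libraries of the 10 replicated sites (17564 genes). Testis and striated muscle contrasts used 58 libraries (18323 genes), so unreplicated sites borrowed the spread of replicated ones. Alternatives were DESeq2 1.42.0, limma 3.58.1 on log2(TPM + 1), RLE scaling, no filter, fewer libraries, the animal as a block, and leaving out each replicate. Libraries of 1 animal at different sites are paired by animal. The scripts were tested on simulated data.

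Members and gene lists were chosen with earlier results of these data known. Named were the paralogues with their parents, up to 5 called members per direction of each contrast by size, and the steadiest and least steady core genes. P-values of the main site contrasts measure the spread between 2 animals per site. Fits that left a site a single library borrowed the spread of the other sites. This holds for retina, hippocampus and femur without their T426 libraries. Results of a few members are not reported here.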

Additional observations from a re-analysis of the deposited data

How the results depend on the processing

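The call of Rpl3l in skeletal muscle and in the striated sites, and those of Rpl10l and Rpl39l in testis, held under every alternative run for them. The number of members lower in muscle was 1 with RLE scaling, limma, DESeq2 and both smaller library sets. In retina, the number higher was 0 with limma and in the smallest set and 1 with the animal as a block and with DESeq2; the number lower was 66 without liver T3F and pancreas T173F and 58 with DESeq2. In hippocampus, the number higher was 0 with limma, the smallest set, the block and DESeq2; the number lower was 47 without liver T3F and pancreas T173F and 33 with DESeq2. In femur, 2 were higher with limma and in the smallest set, and 27 with the animal as a block. The joint count was 70 with limma and DESeq2 and 73 without liver T3F and pancreas T173F. In testis, the number higher was 8 with RLE scaling, 4 in the first smaller set and 5 in the smallest; the number lower was 43 with limma, 19 and 16. In the striated sites the number lower was 3 with limma and 1 in both smaller sets. The cause of these shifts was not tested. Leaving out 1 library gave 0 to 1 lower and 1 to 1 higher in muscle, 0 to 2 higher and 0 to 63 lower in retina, 0 to 1 higher and 0 to 27 lower in hippocampus, 1 to 73 higher and 0 to 0 lower in femur, 8 to 72 in the joint test, and 1 to 1 higher and 0 to 0 lower in the striated sites. In retina Rpl39l was at -0.26 without T426 and up to 5.46 without T3F; in hippocampus Rpl39l was at -0.47 and 4.76 and Rpl10l at -0.67 and 3.78. Outside the 100 most abundant other genes, the members' share had a median of 3.24%, a lowest value of 1.28% and a highest of 13.75%; by counts the highest was 7.82%. By counts the small to large ratio was 0.828 and the Rpl3l share in muscle 85.2%. For the members' median at pancreas, limma on log2(TPM + 1) gave -1.84, against 1.20 with TMM. The animal block could not be fitted for testis, the only library of T424. Depth limits testis most, at 678819 counts.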

Other observations

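In pancreas the direction of the ribosomal protein genes depended on the scale, a contrast added after its signs were seen. The members' median log2 fold change against the mean of the other 9 sites was 1.20 with TMM scaling, against -0.53 for all genes, and -1.84 with limma on log2(TPM + 1), against -2.19 for all genes. On both scales the members lay above the median of all genes. The pancreas pair included the doubted library of T173F, where Rpl11 and Rpl23 took the shares given above. Without it and liver T3F the members' median was 1.63 with TMM scaling, against -0.25 for all genes, from pancreas T3F alone.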
